A study of Rattus norvegicus with 6 samples.

Results

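Integrin subunits and laminin chains were examined in rat dorsal root ganglia, which hold the cell bodies of sensory neurons, after a spared nerve injury (SNI) or a sham operation. Members were all genes whose symbol in the group-average table named an integrin α or β subunit (Itga or Itgb and a short code) or a laminin α, β or γ chain (Lama, Lamb or Lamc and a digit). This gave 38 of 18696 genes, which were 26 integrin subunits, 11 laminin chains and Itgbl1, a secreted integrin-like protein that the naming rule takes in although it is no receptor subunit. Both groups were SD rats, with 3 libraries each. In the SNI group 2 branches of the sciatic nerve, the tibial and the common peroneal, were ligated and severed and a short piece of the distal ends was taken out, leaving the sural branch whole. Sham surgery only exposed the nerve. The sources used here do not give age, sex, time after surgery, or the level and side of the ganglia. A whole ganglion mixes injured neurons, spared neurons and many other cells. Whether the 3 libraries stem from different animals is not stated, so a p-value measures the spread between these libraries, which may be technical. Whether RNA was pooled from several animals is likewise not given.

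Integrins are paired receptors of the cell surface. An α and a β subunit join, the pair binds matrix proteins or proteins of other cells, and most β subunits link to the actin cytoskeleton through talin and kindlin, while β4 has a long tail that links to intermediate filaments through plectin. Laminins are the main adhesive proteins of basement membranes, each built of an α, a β and a γ chain. In a sensory ganglion basement membranes surround the neuron and satellite glia unit, every Schwann cell and every vessel, and integrins on growing axons and Schwann cells bind the laminins in them. Leukocytes carry a family of their own, the β2 integrins.

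Values are in TPM as deposited, the share of a gene's transcripts among all transcripts of a library after correction for length, so that levels of different genes can be compared. Group averages were given for all 38 genes, and values per library for only 6 of them: Itgal, Itgax, Itga6, Itgb4, Itgb6 and Lamb2. Each group's deposited average read counts came to 18.6 M, and the depth of a single library is unknown. Markers of sensory neurons and satellite glia were above 0 TPM in both groups for all 10 and all 8 genes listed. Of 1596 genes that could be tested per library, 61.2% were called at an adjusted p under 0.05 (limma, Benjamini-Hochberg), 32.0% higher and 29.2% lower in SNI. Of these calls 52.3% were higher, against 39.8% after quantile normalization.

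The largest ratios of SNI to sham averages among the members with at least 1 TPM were those of 4 leukocyte integrin genes, Itgax, Itgam, Itgal and Itgb2. Among the more abundant members Itgb8 stood highest in ratio (1.80), and of those with values per library Itga6 rose and Lamb2 fell. Of the 34 members with at least 1 TPM in a group, 6 were past 1.5-fold higher in SNI (Itgal, Itgam, Itgax, Itgb2, Itgb7 and Itgb8), 1 was past 1.5-fold lower (Itga11) and 27 lay between. Among all 14944 genes at that level 7.13% were past 1.5-fold higher and 2.69% past 1.5-fold lower. These folds are ratios of group averages with 1 TPM added to each, which understates the difference of low genes, and they have no error. Without the added 1 TPM, Itga1, Itga2, Itga4 and Itga5 of the 34 were also over 1.5-fold higher and Itgb6 over 1.5-fold lower, as given with each gene below. A higher average in SNI, of any size, was found for 29 of the 38 members and for 53.1% of all genes. The median log2 ratio was 0.26 over the members, 0.38 over the 26 integrin subunits, 0.11 over the 11 laminin chains and 0.02 over all genes. In the authors' deposited lists of changed genes, 4 members were among the higher genes (3.63% of all genes with averages) and 1 among the lower (0.695%). Itga10, Itgad, Lama1 and Lamb3 were under 1 TPM in both groups.

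**Figure D1:**
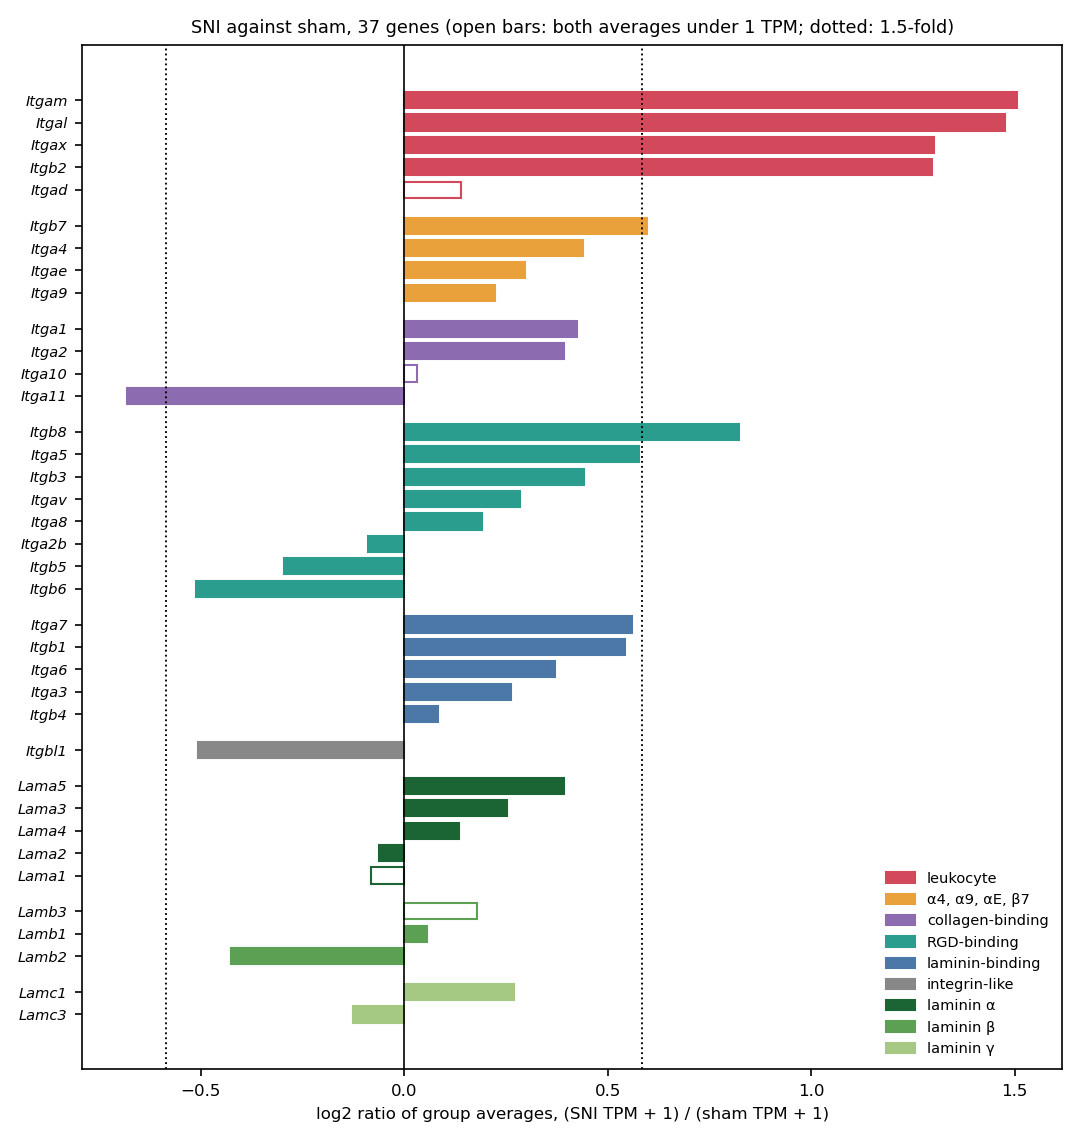
Log2 ratio of group averages, (SNI TPM + 1) over (sham TPM + 1), for 37 integrin and laminin genes ordered by role; open bars mark genes under 1 TPM in both groups and dotted lines 1.5-fold. Itgam, Itgal, Itgax and Itgb2 reach between 1.30 and 1.51, and none of the 8 laminin chains plotted with at least 1 TPM passes 1.5-fold.

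The highest levels belonged to the laminin receptors. Itgb1, the shared β subunit of most matrix integrins, was the most abundant member in both groups, averaging 196 TPM in sham and 286 in SNI. Next came Itgb4 (179 and 190 TPM) and Itga7 (137 and 203 TPM), in that order in sham and in the reverse order in SNI. The next 6 by sham level, between 39.1 and 50.6 TPM, were Itgb5, Lamb1, Itga3, Lamc1, Lamb2 and Itgav. Of these only Lamb2 had values per library, whose sham range of 39.9 to 47.4 TPM spans most of that band. The plot of SNI against sham averages shows the 4 leukocyte genes farthest above the upper dotted line among members of at least 1 TPM, with Itga1, Itga2, Itga4, Itga5, Itgb7 and Itgb8 also above it.

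**Figure D2:**
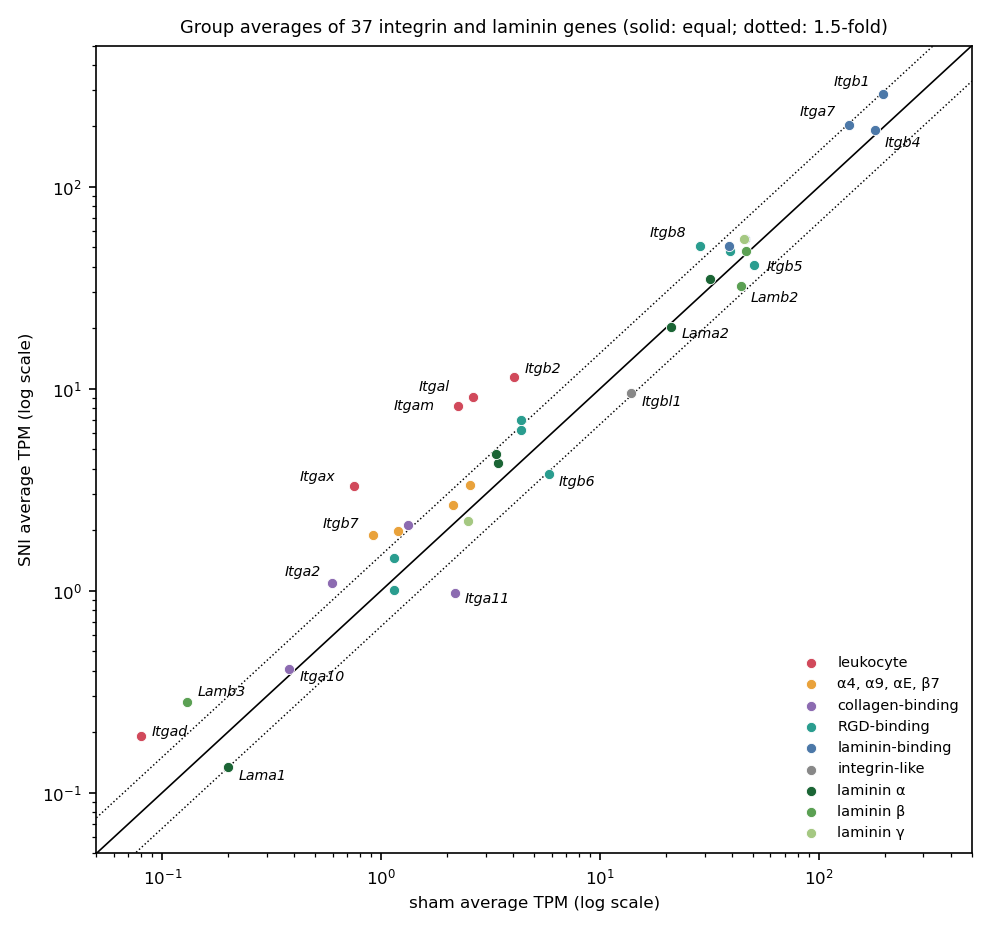
Average TPM in SNI (vertical axis) against sham (horizontal axis), both on log scales, for 37 genes coloured by role; the solid line marks equal averages and the dotted lines 1.5-fold without an added value. Itgal, Itgam, Itgax and Itgb2 lie above the upper line at 0.750 to 4.03 TPM in sham, while Itgb1, Itga7 and Itgb4, all above 100 TPM, lie between the lines.

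The leukocyte integrins share the β2 subunit, which pairs with αL (LFA-1, the receptor of T cells and other leukocytes for ICAM-1), αM (the complement receptor of macrophages and neutrophils), αX (of dendritic cells and macrophages) or αD. Itgal stood at 2.35, 2.38 and 3.12 TPM in the sham libraries 1 to 3 and at 8.47, 9.24 and 9.49 TPM in the SNI libraries. Even the lowest SNI library was well above the highest sham library. The rise was 3.46-fold, from 2.62 ± 0.436 to 9.07 ± 0.532 TPM (SD, n = 3), a log2 fold change of 1.48 on the log2(TPM + 1) scale (SE 0.10, 95% interval 1.25 to 1.72, limma adjusted p = 2.6e-06). Itgax stood at 0.74, 0.90 and 0.61 TPM in sham, against 3.32, 3.32 and 3.30 TPM in SNI. The sham libraries scattered around a level under 1 TPM and the SNI libraries were nearly equal. Itgax rose 4.42-fold, with a log2 fold change of 1.30 (SE 0.11, 95% interval 1.05 to 1.56, limma adjusted p = 1.1e-05).

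Itgam and Itgb2 were given as averages only. Itgam averaged 2.24 TPM in sham against 8.22 TPM in SNI (78.7 and 284 reads), a ratio of 3.66. Itgb2 averaged 4.03 and 11.4 TPM (116 and 330 reads), a ratio of 2.82. Both, with Itgal and Itgax, were in the authors' deposited list of higher genes. Itgad, the remaining β2 partner, averaged 0.0800 and 0.190 TPM on only 2.68 and 6.34 reads and is too low to compare. The 5 genes summed to 9.72 TPM in sham and 32.2 TPM in SNI, 3.31-fold. The α partners together stood at 1.41 times the level of Itgb2 in sham and 1.83 times in SNI, again without an error.

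**Figure D3:**
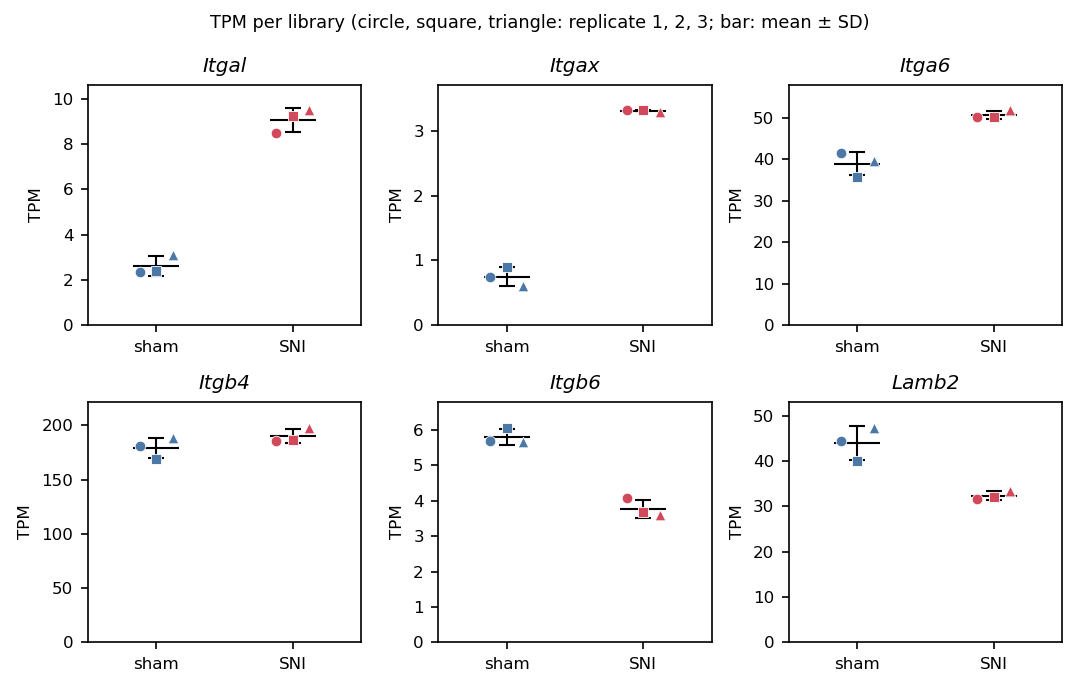
TPM in each of the 3 sham (blue) and 3 SNI (red) libraries for the 6 members with values per library, with mean ± SD; vertical axes start at 0. The groups do not overlap for Itgal, Itgax, Itga6, Itgb6 and Lamb2, and they overlap for Itgb4.

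Markers of leukocytes were higher in the same libraries. Of 14 macrophage markers 12 were past 1.5-fold higher and 0 lower, beside 7.13% and 2.69% of all genes with at least 1 TPM. The summed averages of the 14 markers were 451 TPM in sham and 1001 TPM in SNI, 2.22-fold. The 4 of them with values per library (Cd163, Fcgr3a, Mrc1 and Msr1) summed to 22.6 to 23.7 TPM in the sham libraries and 53.4 to 56.9 TPM in the SNI libraries. Among these, Fcgr3a and Msr1 rose, while Cd163 and Mrc1, markers of resident macrophages, were not called (log2 fold changes of 0.04 and 0.18, limma adjusted p = 0.73 and 0.073). Of 8 neutrophil markers 5 were past 1.5-fold higher, with sums of 287 and 455 TPM that S100a8 and S100a9 dominate, while the granule genes Mpo and Elane averaged 2.84 and 2.67 TPM and 2.66 and 2.48 TPM. Among lymphocyte markers, 3 of the 8 with at least 1 TPM were past 1.5-fold higher, with sums of 12.4 and 24.5 TPM over 12 genes. The T cell gene Cd3e rose (averages of 0.890 and 2.33 TPM). All 8 erythrocyte markers were past 1.5-fold higher too, at sums of 1057 and 3095 TPM. None of the markers of these lists that had averages was at 0. How far cell number accounts for the β2 integrin values was not tested, since in a bulk sample more cells of a type and more RNA per cell cannot be told apart.

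In the RefSeq annotation Itgam, Itgax and Itgad lie next to each other among the protein-coding genes of chromosome 1, with Itgal on the same chromosome and Itgb2 on chromosome 20. The start regions of the neighbours Itgam and Itgax are shown because these genes had the largest ratios of averages in the set, 3.66 and 4.42. Each run is 250 bases before to 50 bases after a transcript start, read 5′ to 3′, from RefSeq on GRCr8, and for Itgax that start lies inside the annotated gene. Capitals mark matches, on either strand, to TGANTCA (bound by AP-1, the Fos and Jun factors), GAGGAA (a core bound by PU.1, the factor of myeloid cells) and GGGCGG (bound by Sp1).
Itgam, chr1:192089342-192089641, GRCr8, plus strand: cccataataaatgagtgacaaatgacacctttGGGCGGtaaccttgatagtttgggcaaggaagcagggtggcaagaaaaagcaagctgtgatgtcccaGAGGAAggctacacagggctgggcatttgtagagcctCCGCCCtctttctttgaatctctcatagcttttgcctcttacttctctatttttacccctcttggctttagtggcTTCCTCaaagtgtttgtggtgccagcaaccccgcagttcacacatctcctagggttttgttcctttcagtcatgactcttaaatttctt
Itgax, chr1:192149799-192150098, GRCr8, plus strand: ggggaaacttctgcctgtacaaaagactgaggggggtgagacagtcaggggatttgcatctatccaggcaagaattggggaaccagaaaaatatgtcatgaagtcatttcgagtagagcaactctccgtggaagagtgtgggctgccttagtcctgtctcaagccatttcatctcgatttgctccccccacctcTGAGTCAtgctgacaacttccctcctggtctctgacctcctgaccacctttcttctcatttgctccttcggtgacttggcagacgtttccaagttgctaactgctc
The Itgam window held GAGGAA on each strand, 2 matches in all, 2 matches to GGGCGG and no TGANTCA. In the Itgax window the reverse was seen, with 1 TGANTCA and neither of the others. Of 33469 RefSeq windows of this length, with several for some genes, 7.33% held TGANTCA, 27.6% GAGGAA and 33.1% GGGCGG. Windows were found for 29 of the 38 members, and 2 of them (Itgax and Lama3) held TGANTCA, 13 GAGGAA and 16 GGGCGG. A match describes the letters only and is not a measured binding site.

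Integrins with α4, α9, αE or β7 bind VCAM-1, MAdCAM-1, tenascin or E-cadherin, and all 4 averages were higher in SNI. Itgb7 averaged 0.913 and 1.89 TPM (27.6 and 53.6 reads), a ratio of 2.07. Itga4, a partner of β7, averaged 1.19 and 1.97 TPM, a ratio of 1.65 that lay within 1.5-fold once 1 TPM was added. Itgae averaged 2.54 and 3.35 TPM and Itga9 2.12 and 2.64 TPM. None of the 4 had values per library or stood in the authors' deposited lists, so no test was made.

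Laminin-binding integrins are the α3, α6 and α7 subunits with β1, and α6 with β4, the pair on the outer face of myelinating Schwann cells. Itga6 stood at 41.4, 35.8 and 39.7 TPM in sham against 50.1, 50.2 and 51.8 TPM in SNI. All SNI libraries were above all sham libraries. Itga6 rose 1.30-fold, from 39.0 ± 2.88 to 50.7 ± 0.953 TPM (SD, n = 3; log2 fold change 0.37, SE 0.06, limma adjusted p = 0.00064). Itgb4 stood at 181, 169 and 188 TPM in sham against 186, 187 and 198 TPM in SNI. Its groups overlapped, and it was not called (log2 fold change 0.08, 95% interval −0.03 to 0.20, limma adjusted p = 0.19). Of the 6 members in the fit, 5 passed, 3 higher and 2 lower (61.2%, 32.0% and 29.2% of all genes tested), and Itgb4 did not. The libraries of the groups did not overlap for 5 of the 6 and for 66.7% of all genes tested, 3 of them higher in SNI (35.3%) and 2 lower (31.3%).

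Itgb4 has no known α partner other than α6, and its transcript level was several times that of Itga6 in every library. The ratio of Itgb4 to Itga6 was 4.36, 4.73 and 4.74 in sham and 3.71, 3.72 and 3.82 in SNI. It was lower in all SNI libraries, at 3.75 ± 0.0628 against 4.61 ± 0.216 (SD, n = 3; exact permutation test, two-sided p = 0.1, the smallest that 3 against 3 libraries allow). Beside this, 7 of 9 markers of myelinating Schwann cells were past 1.5-fold lower (2.69% of all genes with at least 1 TPM). The sum of the 9 went from 11153 to 6019 TPM. Pllp (94.2 and 65.2 TPM) lay within 1.5-fold, as did Egr2, whose average was higher in SNI (9.71 and 11.3 TPM). All 5 of the markers in the fit fell, beside 29.2% of all genes tested. Whether fewer myelinating cells contribute to the Itga6 and Itgb4 values was not tested.

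The other laminin receptors had averages only, all higher in SNI. Itga7, the α7 subunit known from muscle and from regenerating neurons, averaged 137 and 203 TPM (4890 and 7282 reads), a ratio of 1.48. Itgb1 had a ratio of 1.46, on 6542 and 9624 reads, and Itga3 one of 1.20 (45.7 and 55.0 TPM). Both Itga7 and Itgb1 were just within 1.5-fold. The 12 α subunits that can pair with β1 summed to 274 TPM in sham and 374 TPM in SNI, so that their sum was 1.40 and 1.31 times the level of Itgb1. Injured neuron markers were higher too, 10 of 10 past 1.5-fold (7.13% of all genes with at least 1 TPM), with sums of 446 and 3514 TPM. The 10 general neuron markers summed to 32858 and 27675 TPM, with 3 past 1.5-fold lower (2.69% of all genes) and 0 higher. The part of either list in the α7 and β1 values was not tested.

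RGD-binding integrins recognise fibronectin, vitronectin and the latent form of TGF-β through a short peptide motif. Among the β partners of αv, β8 stood higher and β5 lower in the SNI averages. Itgb8, which with αv binds and activates latent TGF-β, averaged 28.5 TPM in sham against 51.1 TPM in SNI (2170 and 3934 reads), a ratio of 1.80 and the largest of any member above 10 TPM in sham. Itgb5, the vitronectin receptor subunit, averaged 50.6 and 41.0 TPM, a ratio of 0.811. Of the summed level of Itgb3, Itgb5, Itgb6 and Itgb8, Itgb8 made up 31.9% in sham and 50.0% in SNI, and Itgb5 56.7% and 40.2%. Itgav itself averaged 39.1 and 47.8 TPM. These shares come from averages and have no error.

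Itgb6, the β subunit typical of epithelia, which also activates TGF-β with αv, was lower in SNI. It stood at 5.70, 6.07 and 5.67 TPM in sham, against 4.07, 3.68 and 3.59 TPM in SNI. No SNI library reached the lowest sham library. Itgb6 fell from 5.81 ± 0.223 to 3.78 ± 0.255 TPM (SD, n = 3; log2 fold change −0.51, SE 0.09, 95% interval −0.71 to −0.32, limma adjusted p = 0.00069). Itga5, the fibronectin receptor subunit, averaged 4.33 and 6.96 TPM, a ratio of 1.61 that was just within 1.5-fold once 1 TPM was added. Itgb3 averaged 4.34 and 6.26 TPM and Itga8 1.14 and 1.44 TPM. Itga2b, the platelet subunit, averaged 1.14 and 1.01 TPM. Of 7 platelet markers beside it, 3 averaged at least 1 TPM in a group. Pf4 (12.3 and 19.8 TPM) and Gp6 (0.323 and 1.09 TPM) were past 1.5-fold higher, beside 7.13% of all genes at that level. Gp5 averaged 1.70 and 0.823 TPM. The rest were lower still: Gp1ba averaged 0.193 and 0.190, Gp9 0.203 and 0.200, Ppbp 0.117 and 0.113 and Treml1 0.280 and 0.250 TPM.

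Collagen-binding integrins, α1, α2, α10 and α11 with β1, all averaged under 3 TPM, 3 of the 4 with a higher average in SNI. Itga11, a receptor of fibroblasts for fibrillar collagen, averaged 2.17 TPM in sham against 0.973 TPM in SNI (97.2 and 42.3 reads), a ratio of 0.449. It was the 1 member in the authors' deposited list of lower genes. Fibroblast markers stood beside it at sums of 999 and 931 TPM over 8 genes, with Dpt and Pi16 past 1.5-fold lower (7.58 and 3.46 TPM, and 16.1 and 7.63 TPM), and the other 6 within. Among all genes with at least 1 TPM 2.69% were past 1.5-fold lower. Of the 6 in the fit 3 fell, 1 rose and 2 did not pass, beside 29.2% lower and 32.0% higher of all genes tested. The 6 summed to 961 to 997 TPM in the sham libraries and 904 to 924 TPM in the SNI libraries. Dcn was the largest of them (528 and 477 TPM). The part of fibroblast markers in the Itga11 value was not tested. Itga1 averaged 1.33 and 2.12 TPM, a ratio of 1.60, and Itga2 0.597 and 1.10 TPM, a ratio of 1.84 on 40.0 and 74.2 reads. Itga1 and Itga2 are neighbours on chromosome 2. Itga10 averaged 0.380 and 0.410 TPM. Itgbl1, the integrin-like protein, averaged 13.9 and 9.50 TPM, a ratio of 0.683.

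Start regions of Itgb8 and Itga11 are shown, as the member with the largest ratio outside the leukocyte set at over 10 TPM and the only one past 1.5-fold lower. The same 3 motifs are in capitals.
Itgb8, chr6:146351196-146351495, GRCr8, minus strand: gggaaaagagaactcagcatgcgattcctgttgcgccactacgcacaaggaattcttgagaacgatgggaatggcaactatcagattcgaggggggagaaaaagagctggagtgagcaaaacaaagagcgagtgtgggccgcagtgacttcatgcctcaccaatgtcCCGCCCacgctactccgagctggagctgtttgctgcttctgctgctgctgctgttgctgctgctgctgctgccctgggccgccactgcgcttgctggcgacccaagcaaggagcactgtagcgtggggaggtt
Itga11, chr8:72041182-72041481, GRCr8, plus strand: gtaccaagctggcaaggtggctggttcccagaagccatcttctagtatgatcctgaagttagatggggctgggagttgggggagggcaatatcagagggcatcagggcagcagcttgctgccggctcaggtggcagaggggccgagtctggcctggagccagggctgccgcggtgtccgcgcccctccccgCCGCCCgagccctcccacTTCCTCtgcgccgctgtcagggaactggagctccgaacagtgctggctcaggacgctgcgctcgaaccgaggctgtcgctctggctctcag
Itgb8 had a single match, to GGGCGG, and Itga11 1 match to GGGCGG and 1 to GAGGAA. Neither held TGANTCA.

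Laminin chains summed to 200.2 TPM in sham and 205 TPM in SNI, against 754 and 991 TPM for the 26 integrin subunits, and none of the 9 chains with at least 1 TPM was past 1.5-fold. Lamb2, the β2 chain of laminins at synapses, vessels and Schwann cells, was the only chain with values per library. It stood at 44.4, 39.9 and 47.4 TPM in sham, against 31.6, 32.1 and 33.4 TPM in SNI. The sham libraries spread more widely, yet all lay above the SNI libraries. Lamb2 fell to 0.738 of its sham level, from 43.9 ± 3.76 to 32.4 ± 0.918 TPM (SD, n = 3; log2 fold change −0.42, SE 0.07, 95% interval −0.58 to −0.27, limma adjusted p = 0.00052). Lamb1, the β1 chain, averaged 46.4 and 48.3 TPM. The share of Lamb2 among the β chains was 48.5% in sham and 40.0% in SNI, that of Lamb1 51.3% and 59.6%. Lamb3, of epithelial laminin-332, was almost absent at 0.130 and 0.280 TPM on 5.00 and 10.3 reads.

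Among α chains, Lama4 of vessels and Lama2 of Schwann cell and muscle basement membranes were the most abundant. Lama4 averaged 31.9 and 35.1 TPM and Lama2 21.1 and 20.1 TPM, together most of the summed α level of 59.9 and 64.4 TPM. Lama5 had the largest ratio of the α chains, 1.40 (3.36 and 4.72 TPM), and Lama3 one of 1.25 (3.43 and 4.27 TPM). Lama1, of early embryonic basement membranes, averaged 0.200 and 0.133 TPM. Lamc1, the γ1 chain that nearly all laminins share, averaged 45.3 and 54.8 TPM, a ratio of 1.21, and Lamc3 averaged 2.50 and 2.21 TPM. The summed level of myelinating Schwann cell markers was lower (11153 and 6019 TPM) beside Lamb2. Endothelial markers averaged a sum of 153 TPM in each group over 9 genes, with 0 past 1.5-fold and 6 higher in SNI. The 3 with values per library summed to 76.1 to 83.2 TPM in the sham libraries and 69.8 to 71.8 TPM in the SNI libraries. Most of that sum was Cldn5 (57.6 and 49.9 TPM), which was called lower (limma adjusted p = 0.021). Esam and Vwf were not called (limma adjusted p = 0.83 and 0.62). The part of either cell type in the fall of Lamb2 was not tested.

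Genes that work with integrins and laminins were taken from 7 lists. Of their members in the fit, 16 were higher and 8 lower of 31 (beside 32.0% and 29.2% of all genes tested), and 7 did not pass. Matrix ligands split: of 12 tested, 7 rose, 3 fell and 2 did not pass, and of 20 with at least 1 TPM, 4 averages were past 1.5-fold higher and 3 lower. The shares of all genes at that level, 7.13% higher and 2.69% lower, stand beside the counts of averages of every list. Spp1, osteopontin, a ligand of αv and α9 integrins, rose by a log2 fold change of 0.92 (limma adjusted p = 5.2e-08), and the thrombospondin Thbs2 by 0.69. Ctgf, a matricellular ligand of αv and αM integrins, had a log2 fold change of −0.71 (limma adjusted p = 6.2e-05). Among 10 surface ligands with at least 1 TPM, C3 and Icam1, which give rise to ligands of αM, αX and αL, were past 1.5-fold higher and 0 were lower. C3 rose by a log2 fold change of 2.30 (limma adjusted p = 1.0e-08), and Icam1, named after its value was seen, averaged 7.36 and 12.4 TPM.

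Basement membrane partners of the laminins lay mostly within 1.5-fold, as did most genes. Of 14 with at least 1 TPM, 2 averages were past 1.5-fold higher, 0 lower and 12 between. Among all 14944 genes at that level 1066 were past 1.5-fold higher, 402 lower and 13476 between. Of 4 tested, Col18a1, the source of endostatin, rose by a log2 fold change of 0.71 and agrin (Agrn) by 0.43, and the other 2 did not pass. Of the other laminin receptors and their attached proteins, 2 averages were past 1.5-fold higher and 1 lower of 14 with at least 1 TPM. The syndecan Sdc1 averaged 4.17 and 23.5 TPM and the hyaluronan receptor Cd44 had a ratio of 1.67, both named after their values were seen, and 3 of the list were tested. Prx, periaxin of the myelinating Schwann cell, had a log2 fold change of −0.78, the syndecan Sdc4 rose by 0.34 and Rpsa by 0.15. Rpsa encodes the ribosomal laminin receptor and has near-identical copies, so its value is uncertain. Dystroglycan (Dag1), the main laminin receptor beside the integrins, named after its value was seen, averaged 195 and 184 TPM.

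Integrin activators and adaptors held 5 averages past 1.5-fold higher and 0 lower of 30 with at least 1 TPM. Among all genes at that level 7.13% were past it higher and 2.69% lower. Of these 5, Apbb1ip, Fermt3 and Parvg are the forms of blood cells, and Tln1 and Lims1 are widely expressed; all were named after their values were seen. Kindlin-3 (Fermt3) averaged 5.46 and 12.4 TPM and kindlin-2 (Fermt2), of other tissues, 110 and 114 TPM. Of 4 adaptors tested, Tln2, Tns1 and Pxn fell, with log2 fold changes of −0.28, −0.23 and −0.20, and 1 did not pass. Among all genes tested 29.2% were called lower. Over the whole list 19 of 31 averages were higher in SNI, beside 53.1% of all genes. Surface partners had 5 averages past 1.5-fold higher and 0 lower of 15. Of the 4 tested, the tetraspanin Cd63 rose by a log2 fold change of 0.79 and Cd47 by 0.16, Cd9 had one of −0.15 and 1 did not pass. Matrix proteases and their inhibitors had the largest median log2 ratio of the 7 lists, 0.47, with 7 averages past 1.5-fold higher and 1 lower of 19. Timp1, an inhibitor of matrix metalloproteinases, rose by a log2 fold change of 2.11 (limma adjusted p = 1.3e-08) and the gelatinase Mmp2 by 0.47 (3.8e-05), while 1 of the 3 tested did not pass. The lists were chosen with earlier results of these data known, and their counts are a description.

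**Figure D4:**
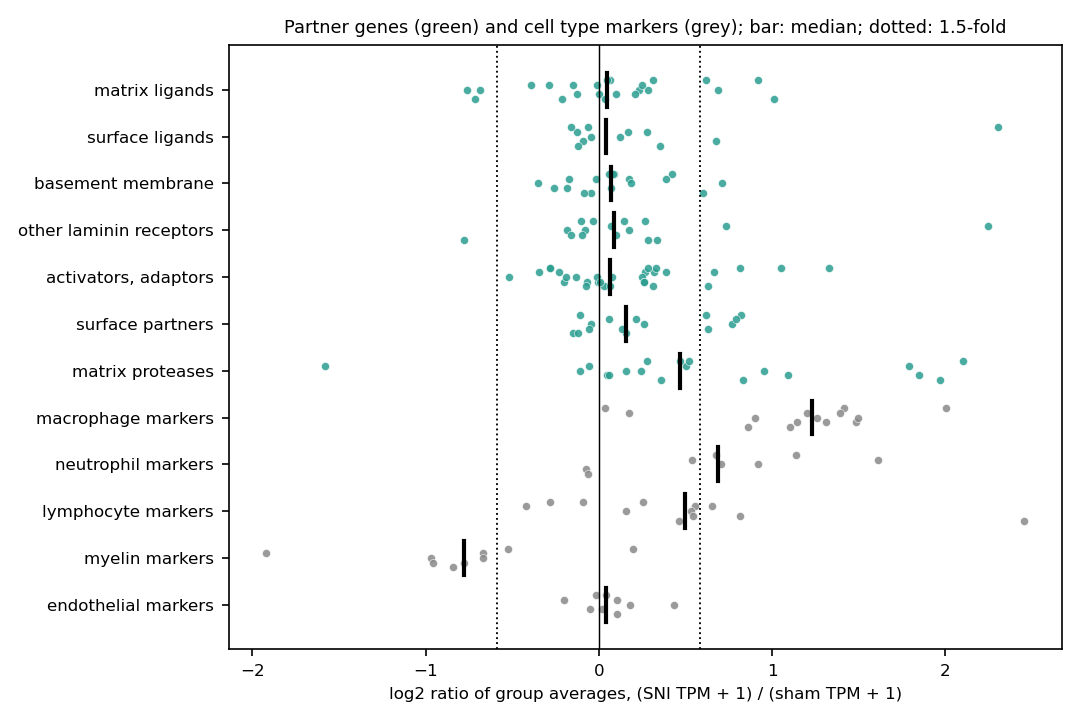
Log2 ratio of group averages for each member of 7 lists of integrin and laminin partners (green) and 5 lists of cell type markers (grey), with the median as a black bar and 1.5-fold as dotted lines. The macrophage median is 1.23 and the myelin median −0.78, while 6 of the 7 partner lists have a median between 0.04 and 0.16.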

How the data were processed

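RNA sequencing of 6 dorsal root ganglion libraries (3 SNI, 3 sham) was analysed from deposited tables. The files hold, as their headers state, TPM per library for 1637 genes and, for 18696 genes, the average TPM of each group, deposited by the authors. Beside these the authors deposited average read counts, which are not whole and were treated as averages of estimated counts. RNA extraction is described in the labels once with Trizol and once with MirVana, and library preparation once with TruSeq and once with NEBNext. The design text names a sequencing institute and GEO as sources of the transcriptomes, without saying which library came from which. The sources used here name no aligner, counter or genome build. The TPM columns of the per-library table summed to 25.8% to 27.1% of a full library, so that table is a selection of genes. Columns named control were taken as sham. In all 1628 genes found in both tables, library means and deposited averages differed by less than 0.01 TPM. Of the authors' 699 higher and 136 lower genes, 678 and 130 had averages.

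The 1596 genes averaging 1 TPM or more over the libraries were compared on the log2(TPM + 1) scale. The model was limma 3.58.1 in R 4.3.3 with trend, its single factor was the group, and p-values were Benjamini-Hochberg adjusted over all tested genes (threshold 0.05). The fit was first tested on simulated data. Ratios of averages used a pseudocount of 1 TPM, a 1.5-fold limit and no test. Alternatives were other pseudocounts, filters and scaling, a replicate block, and leaving out each library. Each member was named except 1, which is not reported here. Of each partner list, up to 3 called members with the largest change were named, and genes outside that rule are said to be so. Members and lists were chosen with earlier results of these data known. Promoter windows and neighbours came from RefSeq (GRCr8), by gene ID. Python 3.11.15, pandas 2.3.3, numpy 2.4.6, scipy 1.17.1 and matplotlib 3.10.9 were used.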

Additional observations from a re-analysis of the deposited data

How the results depend on the processing

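For the 6 integrin and laminin genes in the fit, direction and side of the threshold were the same under every alternative in which they were tested. With a mean of at least 5 TPM required, Itgax and Itgb6 were not tested, which leaves 1 called lower (Lamb2) and 2 higher. Leaving out each library in turn gave the same calls for the 6 genes. After quantile normalization 39.8% of calls in the whole table were higher, against 52.3% as deposited. Same-numbered SNI and sham libraries did not deviate together (correlations of −0.09, −0.06 and 0.19), and not every library correlated best with its own number, so the numbers were not taken as pairs. With the replicate block 498 genes were higher and 447 lower, against 510 and 466 without it, and 3 and 2 of the members.

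Counts from averages depended on the settings. With a pseudocount of 0.1 TPM 10 members were past 1.5-fold higher and 2 lower, and with average read counts 10 higher and 2 lower. The added ones were Itga1, Itga2, Itga4, Itga5 and, lower, Itgb6, all low genes that an added 1 TPM damps. With at least 5 TPM required 4 members were higher and 0 lower (Itgax and Itgb7 drop out above, Itga11 below). Of all genes at that level 6.05% were higher and 2.44% lower. At 2-fold 4 members were higher (without Itgb7 and Itgb8) and 0 lower, beside 2.90% and 0.509% of all genes with at least 1 TPM. No library could be left out of the averages. The 32 members without values per library have no replicate error, and average read counts under 20 (Itga10, Itgad, Lama1 and Lamb3) limit any comparison.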

Other observations

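In the authors' deposited table of pathway names, the leukocyte integrins did not stand under the term ECM-receptor interaction. Such names are annotation of a gene and were not measured in these libraries. That term held 3 of the 699 higher genes (the platelet collagen receptor Gp6, bone sialoprotein Ibsp and the syndecan Sdc1) and 0 integrins or laminins in the authors' deposited table. The 4 β2 integrin genes stood there under regulation of the actin cytoskeleton. Of them 3, without Itgax, also stood under leukocyte transendothelial migration and under cell adhesion molecules. Among the lower genes in the authors' deposited table, ECM-receptor interaction held 2, Itga11 and the cartilage collagen Col2a1.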
